A study of Mus musculus with 9 samples.

Results

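PI3K, AKT and mTOR form the main growth and nutrient signalling route of T cells, and transcripts of 9 of its components were examined in regulatory T (Treg) cells, the Foxp3-dependent CD4 cells that hold immune responses in check. The 9 genes, among 22180 genes with a named probe set, were taken by exact symbol: Pik3cd, Pik3r1, Inpp5d, Akt1, Mtor, Rptor, Rictor, Tsc1 and Tsc2. Each had 1 probe set, so that no choice between probe sets was needed. In null Treg cells, which lack the Hippo kinases Mst1 and Mst2, 1 of the 9 passed the test: Inpp5d, the gene of the lipid phosphatase SHIP-1, fell 1.21-fold. That call sat at the edge of the threshold. The other 8, including the kinase genes Akt1 and Mtor, had differences between -0.18 and 0.22 on the log2 scale and did not pass.

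PI3K is a lipid kinase that antigen receptor, costimulatory and cytokine receptors switch on at the membrane, and its product recruits AKT. AKT in turn relieves the block that the TSC complex places on mTOR complex 1, while mTOR complex 2 adds to the activation of AKT. In Treg cells this route is known to need restraint as well as activity, since strong PI3K and AKT signalling is known to impair Treg stability and loss of mTOR complex 1 is known to impair Treg function. Much of its control acts on proteins, by phosphorylation and by lipid turnover, which an array of transcripts does not measure.

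The samples were 5 wild-type and 4 null samples of C57BL/6 mice, with 1 array each. All were YFP-positive CD4 cells carrying CD45.2 but not CD45.1, sorted from RAG1-/- hosts that had received marrow 2 months before. That marrow was an equal mixture of wild-type CD45.1 marrow and of CD45.2 marrow from a Foxp3YFP-Cre donor (wild-type group) or a Foxp3YFP-CreStk4f/fStk3f/f donor (null group), so YFP and Cre under control of Foxp3 were present in both groups and wild-type CD45.1 cells shared every host. Stk4 encodes Mst1 and Stk3 encodes Mst2. The labels state neither ages nor whether each sample had a host of its own. P-values therefore measure only the spread between these samples, which may be technical. The study's title sets the comparison within interleukin-2 receptor and STAT5 signalling. A level is a log2 RMA value on an arbitrary scale, so levels of different genes are not set against each other, and differences are given as null less wild type.

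Several facts of the whole set of arrays bear on what follows. Correlation with the other arrays of the same group was lower among null arrays (means of 0.9684 to 0.9746) than among wild-type arrays (0.9837 to 0.9861). Stk4 had lower values in each null array than in each wild-type array, but its difference of -0.27 did not pass (limma adjusted p = 0.146), and no named probe set was found for Stk3. The 8 defining T and Treg cell markers were present, and of them Ikzf2 fell and none rose. Their mean level per array was 9.90 to 9.96 in wild type and 9.57 to 9.78 in null samples. Their summed levels did not overlap either, at 13.05 to 13.16 in wild type and 12.76 to 12.96 in null samples. The markers did not move alike. Differences were -0.72 (Ikzf2), -0.32 (Cd3g), -0.31 (Cd3e), -0.28 (Tnfrsf18), -0.18 (Cd4) and -0.0878 (Ctla4). Foxp3 (0.0138) and Il2ra (0.0561) had slightly higher means in null samples, without passing. B cell markers (7 measured, 1 of them below the median of all probe sets, 0 passed) had mean levels of 4.49 to 5.30 in wild type and 4.60 to 5.50 in null samples, and summed levels of 7.55 to 8.50 and 7.64 to 8.66. Myeloid markers (8 measured, 2 below that median) had mean levels of 4.78 to 5.15 and 4.94 to 5.43. Their summed levels were 8.26 to 8.80 and 8.37 to 9.22. Cybb fell and none rose past the threshold. Each other myeloid marker had a higher mean in null samples without passing, by 0.0309 (Itgam) to 0.74 (Tyrobp). NK cell markers (4 measured) all lay below that median. CD8 T cell markers (2 measured, 0 passed) had means of 5.15 to 5.68 and 5.63 to 6.19, and summed levels that did not overlap, 6.48 to 6.91 in wild-type and 6.95 to 7.73 in null arrays. For Cd8b1 the difference was 0.55 (limma adjusted p = 0.133, not passing), and for Cd8a it was 0.12 (limma adjusted p = 0.758). As these are bulk samples, fewer cells of a type and less RNA per cell cannot be told apart, and the part of these markers in any result was not tested.

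The 9 members were read against all genes of the table. Of 22180 genes, 515 passed the limma test (2.32%), 420 of them lower (1.89%) and 95 higher (0.428%), or 35.7% higher in place of 18.4% among the calls after quantile normalisation. With 1 of 9 called, the members offer too few genes for a share to be set against that background. An unadjusted p under 0.05 was reached by 3 members (Inpp5d, Pik3r1 and Tsc1) and by 14.9% of all genes. Groups without overlap were seen for 2 members (Inpp5d and Pik3r1) and for 6.16% of all genes, with 4.4% lower (as Inpp5d was) and 1.76% higher (as Pik3r1 was). Means were higher in null samples for 4 members and lower for 5, with a median difference of -0.0576 against 0.0023 over all genes. That median depends on the scaling. After quantile normalisation the difference of each of the 9 members moved upward, as for Mtor from -0.0576 to 0.016. The median difference over all genes moved by 0.00543.

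**Figure D1:**
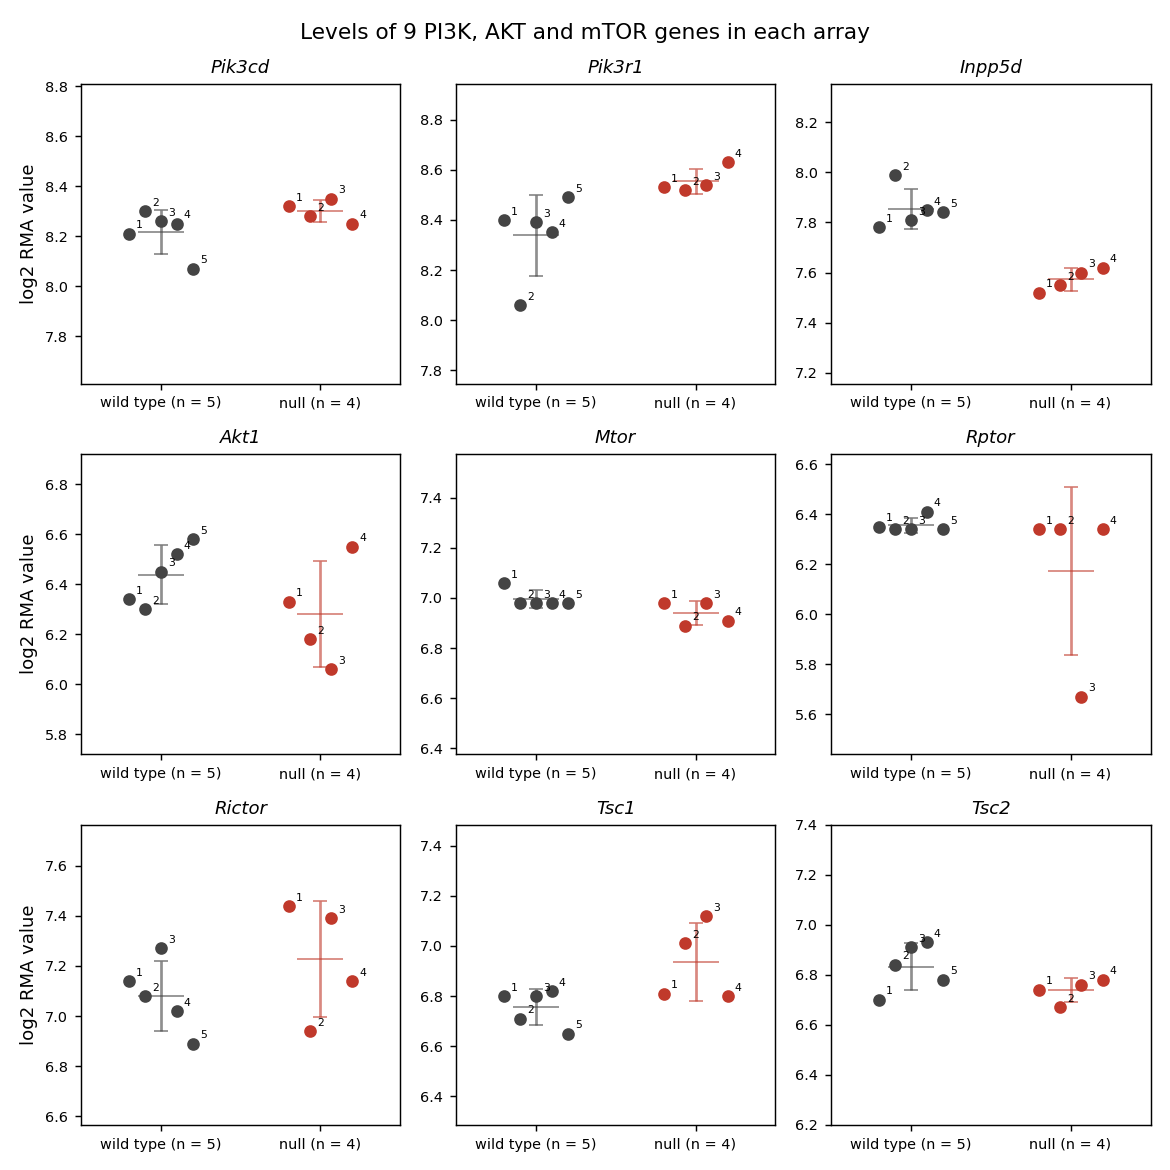
Log2 RMA value of each gene in each array, with wild-type arrays in grey (n = 5) and null arrays in red (n = 4). Numbers are replicate numbers, horizontal bars are group means and vertical bars are SD, and every panel spans the same range of log2 units. Inpp5d and Pik3r1 are the genes whose groups do not overlap, and the wide bar of Rptor comes with the single value of 5.67 in null array 3.

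Among the enzymes that make and remove the lipid product, Pik3cd encodes p110-delta, the catalytic PI3K subunit typical of leukocytes. Its values were 8.21, 8.30, 8.26, 8.25 and 8.07 in wild-type arrays 1 to 5, and 8.32, 8.28, 8.35 and 8.25 in null arrays 1 to 4. The groups overlapped, with wild-type array 5 the lowest and null arrays 1 and 3 above every wild-type array. The difference was 0.0824 ± 0.0639 (SE), with a 95% interval from -0.0595 to 0.22, and did not pass (limma adjusted p = 0.618). It was 0.0443 without wild-type array 5.

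Pik3r1 encodes the p85-alpha regulatory family, which stabilises the catalytic subunit and holds it inactive until a receptor is engaged. Its wild-type values were 8.40, 8.06, 8.39, 8.35 and 8.49, and its null values were 8.53, 8.52, 8.54 and 8.63. Every null array lay above every wild-type array, by 0.036 at the nearest point, and wild-type array 2 stood below its group. Means were 8.34 ± 0.162 (SD, n = 5) and 8.55 ± 0.0499 (SD, n = 4). The difference of 0.22 (95% interval 0.0278 to 0.41) did not pass over all genes (limma adjusted p = 0.255), and was 0.15 without wild-type array 2. The transcript variants of this gene, which give proteins of different length, share its single probe set and were not told apart.

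Inpp5d encodes SHIP-1, which removes the 5-phosphate from the lipid product of PI3K and so limits the recruitment of AKT. Its values were 7.78, 7.99, 7.81, 7.85 and 7.84 in wild-type arrays 1 to 5 and 7.52, 7.55, 7.60 and 7.62 in null arrays 1 to 4. Every null value lay below every wild-type value, with a gap of 0.159, and the null arrays lay closer together than the wild-type arrays. The mean fell from 7.85 ± 0.0836 (SD, n = 5) to 7.57 ± 0.0457 (SD, n = 4), a difference of -0.28 ± 0.0624 (SE) with a 95% interval from -0.42 to -0.14 (limma adjusted p = 0.0487). By p it ranked 493 among the 515 called genes, and 11.3% of all genes had a larger absolute difference. The direction was kept in all 19 alternative fits (differences from -0.30 to -0.21), while the call was kept in 3 of them (adjusted p from 0.0356 to 0.215). Most of these fits could not have turned the direction. The groups do not overlap, so leaving arrays out cannot reverse it. The filter, the probe set choices and the variance model left the difference unchanged. Leaving out any 1 of the 9 arrays ended the call, with adjusted p between 0.0622 without null array 4 and 0.118 without null array 1. None of its 5 nearest tested genes on either side was called.

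**Figure D2:**
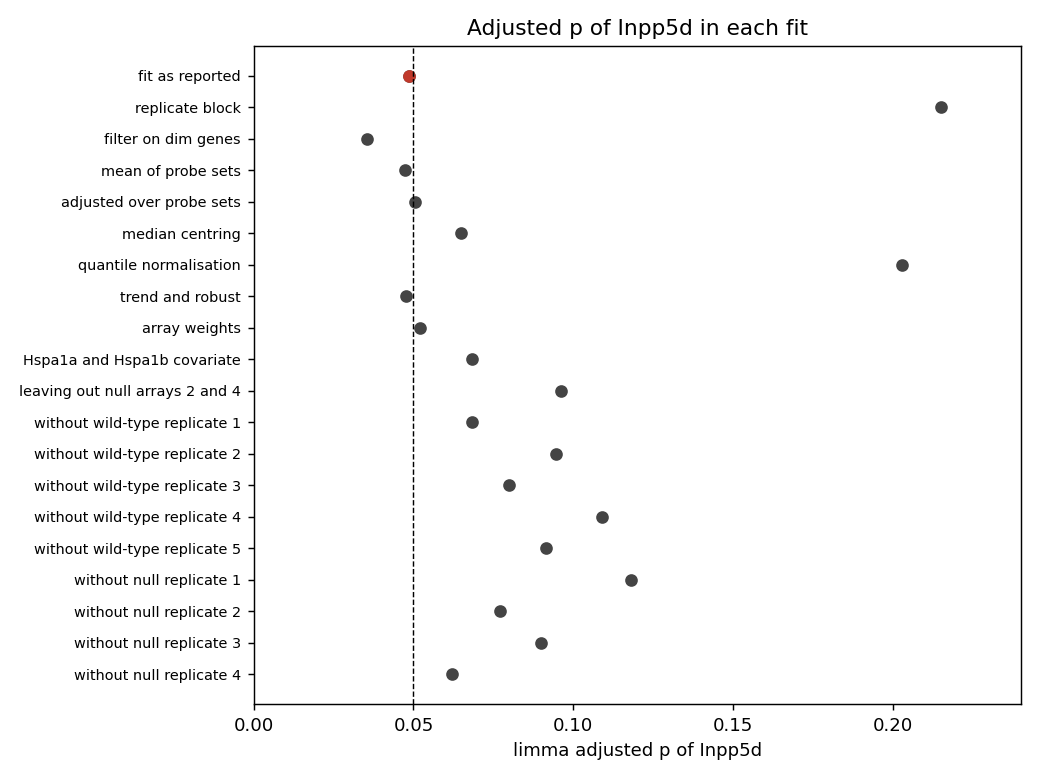
Limma adjusted p of Inpp5d (horizontal axis) in the fit as reported (red) and in 19 alternative fits (grey, one per line), with the threshold of 0.05 dashed. The fit as reported stands at 0.0487, 3 alternatives stand below the threshold and 16 above it, up to 0.215 with the replicate block.

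Because the study asks about STAT5, the 250 bases before each RefSeq start of the 9 genes (build GRCm38.p6, 13 starts in all) were searched on both strands for the STAT5 pattern TTCNNNGAA, for the FOXO pattern GTAAACA, since FOXO factors are restrained by AKT, and for the ETS pattern AGGAAGT, which was added after the Inpp5d sequence had been read. The STAT5 pattern was found before 1 start, that of Mtor, and in 7.02% of all 32851 promoters of the table. The FOXO pattern was found before 1 start of Akt1 and in 3.17% of promoters. The ETS pattern was found before 1 start, that of Inpp5d, and in 7.69% of promoters. As its letters were chosen with that sequence in view, the match at Inpp5d is no separate finding. Only this spelling was searched. The Mtor window holds cggaagt, which differs from it in the first letter and was not counted, so the pattern does not set Inpp5d apart from Mtor. No matches overlapped. The windows with a match are shown 5′ to 3′ on the strand of the gene, with the match in capitals. The first belongs to the called member, at chr1:87620062-87620311 on the plus strand. The others are at chr4:148448332-148448581, plus strand, and chr12:112674885-112675134, minus strand.
Inpp5d: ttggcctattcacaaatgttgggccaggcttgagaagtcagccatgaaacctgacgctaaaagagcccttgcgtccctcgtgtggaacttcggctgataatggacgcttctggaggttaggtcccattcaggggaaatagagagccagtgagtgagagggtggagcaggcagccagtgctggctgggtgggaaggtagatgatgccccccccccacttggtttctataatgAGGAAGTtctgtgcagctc
Mtor: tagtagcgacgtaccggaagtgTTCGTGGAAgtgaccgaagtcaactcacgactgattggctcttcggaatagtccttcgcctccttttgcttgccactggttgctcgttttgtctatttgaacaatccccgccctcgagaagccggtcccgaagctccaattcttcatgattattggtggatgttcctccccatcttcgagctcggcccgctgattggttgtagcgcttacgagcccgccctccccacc
Akt1: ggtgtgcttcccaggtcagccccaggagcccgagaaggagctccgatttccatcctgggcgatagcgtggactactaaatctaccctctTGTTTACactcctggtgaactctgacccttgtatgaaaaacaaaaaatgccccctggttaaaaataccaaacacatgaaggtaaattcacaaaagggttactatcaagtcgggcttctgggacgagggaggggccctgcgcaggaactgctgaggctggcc
A match is a description of letters and not a binding site. The share of G or C was 54.4% in the windows of Inpp5d and Mtor and 52% in that of Akt1.

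Akt1 encodes the AKT isoform that phosphorylates FOXO factors and TSC2, among many substrates. Its values were 6.34, 6.30, 6.45, 6.52 and 6.58 in wild-type arrays and 6.33, 6.18, 6.06 and 6.55 in null arrays. Null arrays 2 and 3 lay below every wild-type array, and null array 4 lay near the top of the wild-type range. The difference was -0.16 ± 0.103 (SE), with a 95% interval from -0.39 to 0.0682 (limma adjusted p = 0.533), and it ranged from -0.25 (without null array 4) to -0.0875 (without null array 3) when 1 array was left out, with -0.0844 after quantile normalisation.

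The catalytic kinase gene Mtor and its partner genes Rptor and Rictor come next. Mtor was 7.06, 6.98, 6.98, 6.98 and 6.98 in wild-type arrays and 6.98, 6.89, 6.98 and 6.91 in null arrays. The value 6.98297 stood, to all deposited digits, in 6 arrays, 4 wild-type and 2 null, so the groups touched and differed only through wild-type array 1 and null arrays 2 and 4. The difference was -0.0576 ± 0.0541 (SE), with a 95% interval from -0.18 to 0.0625 (limma adjusted p = 0.692), and it turned to 0.016 after quantile normalisation.

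Rptor encodes Raptor, the scaffold that brings substrates to mTOR complex 1. It was 6.35, 6.34, 6.34, 6.41 and 6.34 in wild-type arrays and 6.34, 6.34, 5.67 and 6.34 in null arrays. The value 6.34476 was repeated exactly in 5 arrays, 3 wild-type and 2 null, and null array 3 stood alone below the rest. The difference of -0.18 ± 0.131 (SE; 95% interval -0.47 to 0.11, limma adjusted p = 0.588) was -0.0152 without null array 3. Mlst8, another subunit of mTOR complex 1, was also lowest in null array 3, at 5.14 against 5.64 to 5.67 in the other null arrays and 5.67 to 5.87 in wild type. Its difference of -0.23 (limma adjusted p = 0.384) was -0.0991 without that array.

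Rictor encodes the defining subunit of mTOR complex 2, the complex that phosphorylates AKT. Its values were 7.14, 7.08, 7.27, 7.02 and 6.89 in wild-type arrays and 7.44, 6.94, 7.39 and 7.14 in null arrays. Null arrays 1 and 3 lay above every wild-type array, and null arrays 2 and 4 lay within the wild-type range. The difference was 0.15 ± 0.113 (SE), with a 95% interval from -0.10 to 0.40 (limma adjusted p = 0.613). It was 0.0768 without null array 1, 0.0942 without null array 3 and 0.24 without null array 2, and 0.33 (limma adjusted p = 0.137) with null arrays 2 and 4 both left out.

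Tsc1 and Tsc2 encode the complex that keeps the GTPase Rheb inactive and so restrains mTOR complex 1. Tsc1, the stabilising subunit, was 6.80, 6.71, 6.80, 6.82 and 6.65 in wild-type arrays and 6.81, 7.01, 7.12 and 6.80 in null arrays. Null arrays 2 and 3 lay above every wild-type array, and null arrays 1 and 4 lay among the upper wild-type values. Its difference was 0.18 ± 0.0805 (SE), with a 95% interval from 0.00273 to 0.36 that held no 0, but it did not pass over all genes (limma adjusted p = 0.326). Tsc2, which carries the GTPase-activating domain, was 6.70, 6.84, 6.91, 6.93 and 6.78 in wild-type arrays and 6.74, 6.67, 6.76 and 6.78 in null arrays. All null arrays but array 2 lay inside the wild-type range. The difference of Tsc2 was -0.0959 ± 0.066 (SE), with a 95% interval from -0.24 to 0.0506 (limma adjusted p = 0.568). Of the 5 nearest tested genes on either side, 2 were called for Tsc2 (Traf7 and Rab26os) and 1 for Pik3r1 (Mast4), and none for the other 7 members. Over all genes 2.32% were called, and the called neighbours are too few to be set against that share.

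**Figure D3:**
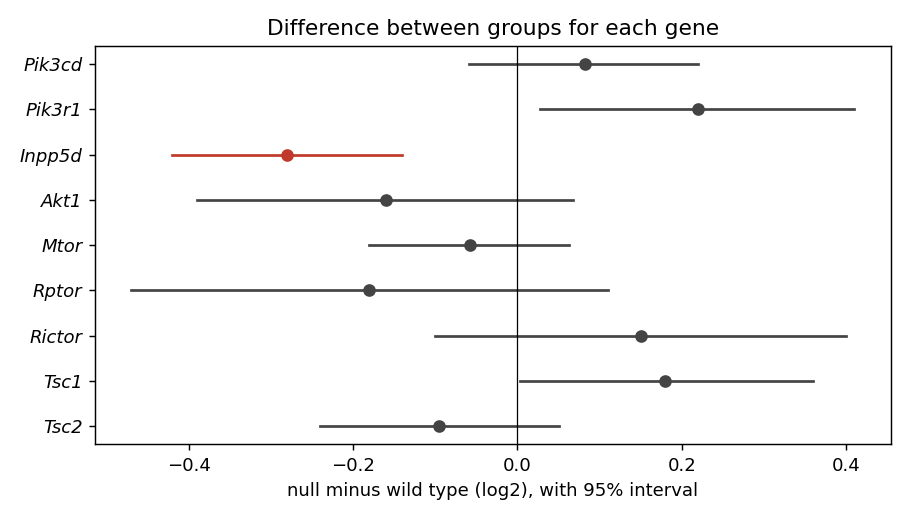
Null minus wild-type difference in log2 RMA value (horizontal axis) for each gene, with its 95% interval from limma (5 wild-type and 4 null arrays). Inpp5d, in red, is the gene past the adjusted threshold, and its interval lies below 0. The intervals are not adjusted, and those of Pik3r1 and Tsc1 lie above 0.

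Exactly repeated values were not particular to Mtor and Rptor. Of the 9 members, 5 had a value repeated to all deposited digits in at least 2 arrays, and Pik3cd, Tsc1 and Tsc2 each shared 1 value between a wild-type and a null array. Over all genes, 56.6% had such a repeat, 32.2% had a value shared by at least 3 arrays and 6.23% by at least 5. Of the 7147 genes with a value shared by at least 3 arrays, 0 passed the limma test. Where a wild-type and a null array hold the same value, the groups cannot lie fully apart, and the SD of 0.0337 for Mtor and 0.029 for Rptor in wild type rests on arrays that are mostly equal. What produced the repeats was not tested.

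**Figure D4:**
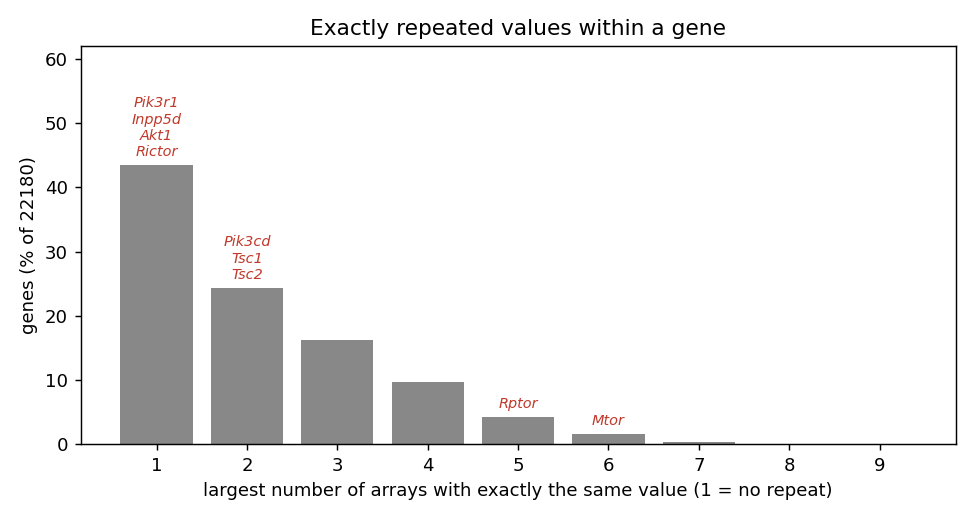
Share of the 22180 genes (vertical axis, percent) by the largest number of arrays that hold exactly the same deposited value (horizontal axis, where 1 means no repeat). The members are named above their bar, and Rptor stands at 5 and Mtor at 6 arrays.

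Spread between arrays differed from member to member. The SD was larger in null than in wild-type arrays for 5 members (Akt1, Mtor, Rptor, Rictor and Tsc1) and smaller for 4 (Pik3cd, Pik3r1, Inpp5d and Tsc2), against 59.2% of all genes with a larger SD in null arrays. Hspa1a and Hspa1b, heat shock genes that varied widely from array to array in both groups (Hspa1a spanned 2.80 to 9.93 across wild-type arrays and 3.18 to 9.86 across null arrays), were at their lowest in wild-type array 2, which was also the highest array for Inpp5d and the lowest for Pik3r1. With the mean of both heat shock genes as a covariate, the Inpp5d difference was -0.28 and no longer passed (limma adjusted p = 0.0682).

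For each member, the gene with the most similar profile over the 9 arrays was sought among genes above the median of all probe sets. Inpp5d was most like Ptger2, which encodes a prostaglandin E2 receptor (Pearson r = 0.989, Spearman rho = 1.000), and r was 0.986 without the pair of arrays farthest from the Inpp5d median. Ptger2 fell by 0.958 (limma adjusted p = 0.00362), so that the likeness includes the group difference that both genes share. Pik3r1 was most like Acy1 (r = 0.963), Rictor like Cd302 (0.953), Pik3cd like Hivep2 (0.936), Akt1 like Cmpk2 (0.928), Tsc1 like Slc27a4 (0.930), Tsc2 like the pseudogene Rps15a-ps6 (0.961) and Mtor like Brip1os (0.982). Without the pair of arrays farthest from the member's median, r was 0.777 for Pik3r1, 0.756 for Tsc1 and 0.861 for Pik3cd. It was 0.905 for Rictor, 0.927 for Akt1, 0.928 for Tsc2 and 0.937 for Mtor. Rptor was most like Ahctf1 (r = 0.995), a value that rests on null array 3: without arrays null 3 and wild-type 4, r was 0.000. Each is the best match of a whole table over 9 arrays and is given as a description.

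The rest of the pathway was described through 7 lists with 109 genes, of which 100 were measured. In these lists 2 genes rose, 1 fell and 97 did not pass, or 3% called against 2.32% of all genes, and the median difference was -0.00145. An unadjusted p under 0.05 was reached by 20 of the 100, against 14.9% of all genes.

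Among 13 other PI3K subunits and adaptors, 1 rose and 12 did not pass (median difference -0.0736). The rise was in Pik3r5, which encodes p101, the regulatory partner of the p110-gamma PI3K that G protein-coupled receptors activate. Its values were 7.17, 6.85, 7.24, 7.10 and 7.24 in wild-type arrays and 7.49, 7.79, 7.70 and 7.76 in null arrays. The groups were apart by 0.244. Its level rose by 0.56 ± 0.0968 (SE), or 1.48-fold (limma adjusted p = 0.0159), and it stayed past the threshold when any 1 array was left out (adjusted p from 0.0214 to 0.0476), but not with null arrays 2 and 4 both left out (0.0837).

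Of 13 phosphatases of phosphoinositides and of AKT, 1 fell and 12 did not pass (median -0.0664), and means were lower in null samples for 9. Inpp5f, which encodes the phosphoinositide phosphatase SAC2, had values of 7.30, 7.13, 7.16, 7.08 and 7.11 in wild-type arrays. In null arrays they were 6.82, 6.78, 6.63 and 6.59, all below wild type. It fell by 0.45 ± 0.0731 (SE), or 1.37-fold (limma adjusted p = 0.0122), and passed in each fit that left out 1 array (adjusted p from 0.0173 to 0.0406).

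The 14 genes of the TSC, Rheb and AMPK list held 1 rise and 13 that did not pass (median 0.0158). Rhebl1, a Rheb-like GTPase gene, was 4.63, 4.46, 4.49, 4.60 and 4.38 in wild-type arrays and 4.88, 4.74, 5.05 and 5.17 in null arrays, above the median of all probe sets (4.04) in each array. Null arrays all lay above wild type. The rise of 0.45 ± 0.0949 (SE; limma adjusted p = 0.0378) lost its call when any 1 array other than null array 2 was left out (adjusted p up to 0.105).

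No gene passed in the remaining 4 lists by limma. An unadjusted p under 0.05 was reached by 2 of 7 genes of other AKT kinases and AKT regulators and by 0 of 9 mTOR complex genes. It was reached by 6 of 26 genes of amino acid sensing on lysosomes and by 4 of 18 targets of AKT and mTOR. In the first list the smallest p belonged to Sgk3, an AKT-related kinase gene (difference 0.61, limma adjusted p = 0.131), and Trib3 (0.29, 0.26), and all 7 means were higher in null samples. In the mTOR complex list it belonged to Mlst8, described above, and Mapkap1, an mTOR complex 2 subunit gene (difference -0.12, limma adjusted p = 0.453). Mios, a GATOR2 subunit gene (-0.38, limma adjusted p = 0.116), and Sesn1, which encodes an inhibitor of mTOR complex 1 (0.38, 0.162), led the list of amino acid sensing. Among the targets, Eif4b, which encodes a translation initiation factor, had values of 8.99 to 9.27 in wild type and 8.56 to 8.91 in null samples, a difference of -0.37 just outside the threshold (limma adjusted p = 0.0552), followed by the autophagy kinase gene Ulk1 (-0.32, 0.242).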

How the data were processed

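The authors deposited log2 expression values, 1 per probe set and array, and the submitters' processing notes name RMA (background correction, quantile normalisation, probe summary) and Affymetrix Expression Console 1.1. Per the labels' protocols, NuGEN kits amplified and labelled the RNA. No source used here names the genome build of the arrays. The table held 41345 probe sets and 9 arrays, with array medians from 3.993 to 4.076. Probe sets with 1 symbol (23521) were kept, with symbols updated by Entrez identifier (23328 matched). For genes with several probe sets (1082), that of highest mean was used. The number of arrays limits the precision.

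Groups were compared with limma 3.58.1 (lmFit, eBayes; R 4.3.3), two-sided, Benjamini-Hochberg adjusted over the 22180 genes, at a threshold of 0.05, without a filter. On simulated data the fit recovered 66% of 100 genes changed by 0.5 and 93% of those changed by 1, with 7 of 166 calls false. The simulation used independent normal noise with the same SD in both groups and no repeated values. Every member differed by less than 0.5, and changes that small were not simulated. Members and lists were chosen with earlier results of these data known. Genes named outside the members were the passing genes of each list (at most 4), or the 2 with the smallest p where none passed, 1 most similar gene per member, markers, and Stk4 and heat shock genes as checks. Called neighbours were named after their values were seen. Promoter sequences are RefSeq's, for all 9 members. The 19 alternatives covered replicate block, filter, probe set choice, scaling, variance model, weights, heat shock level and arrays left out. Python 3.11.15, pandas 2.3.3, numpy 2.4.6, scipy 1.17.1 and matplotlib 3.10.9 were used.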

Additional observations from a re-analysis of the deposited data

Results flagged for a closer look

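Sets of 4 or 5 arrays were examined by group for the members, the other named pathway genes and the marker lists. Of 50 sets, 8 held an array far from the rest by Dixon's ratio. The nominal rate of about 5% assumes independent normal values. These sets share arrays and some hold exactly repeated values, so the 8 cannot be set against that rate. Rptor was lowest in null array 3 (5.67) and highest in wild-type array 4 (6.41), and Mlst8 was lowest in null array 3 (5.14). Mtor was highest in wild-type array 1 (7.06), where the other wild-type arrays held 1 and the same value. Pik3r1 was highest in null array 4 (8.63). Mapkap1 was highest in wild-type array 2 (7.28) and Mios lowest in wild-type array 4 (6.04). The mean level of the CD8 T cell markers was highest among null arrays in null array 2 (6.19).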

How the results depend on the processing

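The count of called members was 1. It was 0 with the replicate block, with adjustment over probe sets, with median centring, quantile normalisation, array weights or the Hspa1a and Hspa1b covariate, and with null arrays 2 and 4 left out. Leaving out 1 array gave 0 to 0. Quantile normalisation moved the difference of each member upward, and that of Mtor turned to 0.016. For each other member, the direction held in all 19 alternatives. The filter, probe set choice and variance model did not change the difference itself, as each member had 1 probe set. For Inpp5d and Pik3r1, whose groups do not overlap, leaving arrays out could not turn the direction. Other pathway genes called were 3, 0 with the replicate block and 5 with the filter on dim genes. Of all genes, 515 were called, 178 with the replicate block (162 among the 515), and 271 (without wild-type array 4) to 594 (without null array 2) with 1 array left out. The replicate number is shared by label only: deviations of same-numbered arrays correlated by -0.115 to 0.042, and 0 of 8 arrays correlated best with their own number. The block leaves wild-type array 5 without a partner, and the Inpp5d difference under it was -0.28 (limma adjusted p = 0.215); the calls of Pik3r5 (0.0945), Inpp5f (0.0584) and Rhebl1 (0.135) were lost under it too. Eif4b passed in 4 alternatives. Without scanner values, dim signal and background were not told apart.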
